A study of Mus musculus with 16 samples.

Results

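The NR4A orphan nuclear receptors are encoded in the mouse by Nr4a1 (Nur77), Nr4a2 (Nurr1) and Nr4a3 (Nor1), and their transcripts were followed here in cultured fat progenitors given the beta-adrenergic agonist isoproterenol. The members were taken by symbol, and all 3 were found among the 27179 entries of the deposited table. Each was written to a row of its own, with Entrez identifiers 15370, 18227 and 18124.

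NR4A proteins are transcription factors of the nuclear receptor superfamily for which no classical hormone ligand is known and whose ligand pocket is filled by bulky side chains, so that their activity is thought to depend mainly on how much protein is made. They bind DNA as monomers at the NBRE element or as dimers, and Nr4a1 and Nr4a2 proteins, but not that of Nr4a3, also pair with retinoid X receptors. Their genes are early response genes: cyclic AMP raised by Gs-coupled receptors such as the beta-adrenergic receptors activates protein kinase A, which phosphorylates CREB at cyclic AMP response elements (CREs) near their promoters. In muscle, liver and brown fat they are known to be raised by adrenergic signals, exercise, fasting or cold.

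RNA was sequenced from PDGFRb+ stromal cells of C57BL/6 inguinal white fat, sorted by flow cytometry into DPP4_pos and DPP4_neg adipose progenitor cells (APCs) and cultured in medium with 10% serum. DPP4 is a surface peptidase of interstitial progenitors. The 4 groups were DPP4_pos APCs given isoproterenol, DPP4_pos APCs given PBS vehicle, DPP4_neg APCs given isoproterenol and DPP4_neg APCs given vehicle, each for 4 h and with 4 libraries from 500 ng of total RNA. The labels write the isoproterenol dose as 10 mM, which is far above the doses usual in culture, and nothing in them tells if the 4 libraries of a group are from different animals or cultures. The p-values are therefore about library-to-library spread, of which part may be technical. They name no genotype, age or sex. Reads in genes ranged from 9823799 to 16563940 in DPP4_pos isoproterenol, 17189166 to 20425332 in DPP4_pos vehicle, 10191846 to 22121496 in DPP4_neg isoproterenol and 16479650 to 28627223 in DPP4_neg vehicle libraries. Dpp4 followed the sort, with 2223 ± 97.7 and 3053 ± 186 normalized counts in DPP4_pos isoproterenol and vehicle libraries and 9.89 ± 2.29 and 21.1 ± 4.16 in DPP4_neg isoproterenol and vehicle libraries (mean ± SD, n = 4 each). Pdgfrb was read in every group, with group means from 2105 ± 163 in DPP4_pos isoproterenol to 11315 ± 149 normalized counts in DPP4_neg vehicle libraries. These are bulk libraries, in which fewer cells of a type and less RNA per cell cannot be told apart.

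The promoter windows of the 3 genes are shown because each carries the core letters of the CRE, TGACG or its reverse complement CGTCA, and because the 3 transcripts moved together. All 3 members matched RefSeq's table for GRCm38.p6, whose windows run from 250 bases before to 50 bases after a start site. Nr4a1 lies on the plus strand of chromosome 15 from 101253902 to 101274795, Nr4a2 on the minus strand of chromosome 2 from 57106830 to 57124003 and Nr4a3 on the plus strand of chromosome 4 from 48045078 to 48086447. For Nr4a1 and Nr4a3 the start site of the window lies inside this span, downstream of the outermost annotated start. The windows are chr15:101266596-101266895 for Nr4a1, chr2:57123954-57124253 for Nr4a2 and chr4:48045055-48045354 for Nr4a3, each written 5′ to 3′ on the gene's strand with the core letters in capitals.
Nr4a1: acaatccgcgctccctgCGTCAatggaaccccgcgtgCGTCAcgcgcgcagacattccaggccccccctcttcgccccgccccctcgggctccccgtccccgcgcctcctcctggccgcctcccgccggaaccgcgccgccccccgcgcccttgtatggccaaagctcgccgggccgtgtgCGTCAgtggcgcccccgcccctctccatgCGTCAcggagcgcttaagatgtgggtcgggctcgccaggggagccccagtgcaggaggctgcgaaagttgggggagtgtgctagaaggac
Nr4a2: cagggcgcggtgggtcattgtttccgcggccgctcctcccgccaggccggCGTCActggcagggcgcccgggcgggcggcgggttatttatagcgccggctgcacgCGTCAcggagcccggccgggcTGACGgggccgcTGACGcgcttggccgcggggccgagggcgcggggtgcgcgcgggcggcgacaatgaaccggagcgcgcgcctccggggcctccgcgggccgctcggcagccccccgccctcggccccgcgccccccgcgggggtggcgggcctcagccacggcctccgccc
Nr4a3: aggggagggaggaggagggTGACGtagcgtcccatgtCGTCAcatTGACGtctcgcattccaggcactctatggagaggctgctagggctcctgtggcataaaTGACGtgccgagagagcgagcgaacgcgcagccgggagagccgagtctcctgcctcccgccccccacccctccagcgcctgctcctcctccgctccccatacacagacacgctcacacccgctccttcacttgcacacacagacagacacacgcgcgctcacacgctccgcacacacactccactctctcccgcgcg

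Each of the 3 windows held 4 stretches of the CRE core, searched on both strands with overlapping matches counted as 1. Among all 32851 promoter windows of the table, which belong to 27025 genes, 20.8% held at least 1 and 0.113% held at least 4. In Nr4a1 all 4 read CGTCA and began at positions −233, −213, −69 and −40 from the start site. In Nr4a2 a pair read CGTCA (−200 and −144) and a pair TGACG (−123 and −111). In Nr4a3 the 4 stretches lay between −231 and −143, and 3 of them read TGACGT, a longer match that overlaps the core and was absent from the other windows. TGACGT was found in 7.51% of all windows, and at least 3 copies of it in 0.0183%. The full palindrome TGACGTCA, which 1.79% of windows held, and the NBRE letters AAAGGTCA, which 1.51% held, were in none of the 3. The core contains a CG pair and the windows were rich in G and C (72.3% in Nr4a1, 81.7% in Nr4a2 and 64.7% in Nr4a3, against a median of 52.7% over all windows); the part of base composition in these counts was not tested. A match of letters is a description of the window and does not show that a factor binds there.

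**Figure D1:**
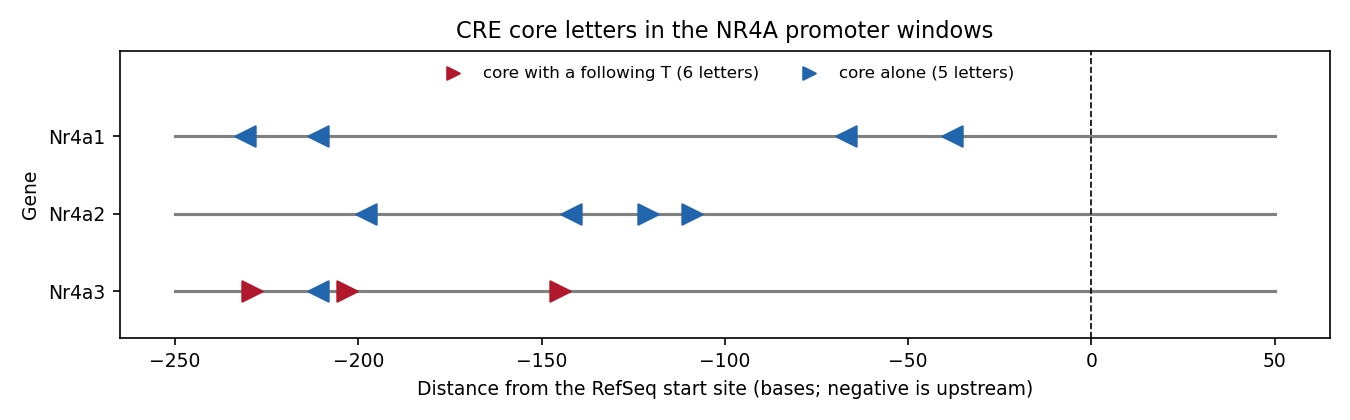
Map of the CRE core letters (TGACG, arrowheads pointing right, or CGTCA, pointing left) in the promoter windows of Nr4a1, Nr4a2 and Nr4a3, by distance from the RefSeq start site in bases. Each window holds 4, and 3 of those of Nr4a3 (red) go on with a T to TGACGT.

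In DPP4_pos APCs isoproterenol raised all 3 NR4A transcripts, Nr4a3 and Nr4a1 by over 100-fold in the ratio of means. Nr4a1 had 9236, 9028, 9620 and 9489.6 normalized counts in isoproterenol libraries, against 99.5, 72.1, 56.7 and 90.4 in vehicle libraries. Every isoproterenol library was far above every vehicle library. The group means were 9343 ± 264 and 79.7 ± 19.1 normalized counts (SD, n = 4 each), a ratio of 117, and the log2 change on the scale of log2(normalized count + 1) was 6.89 ± 0.11 (standard error, limma adjusted p = 7.93e-23). Nr4a3 had 1248, 1268, 1526 and 1383 normalized counts in isoproterenol libraries, against 8.07, 5.95, 8.86 and 11.8 in vehicle libraries. Under vehicle Nr4a3 was thus near the limit of what these libraries count, with 8 to 14 reads each. Its means of 1356 ± 128 and 8.67 ± 2.44 normalized counts gave a ratio of 156 and a log2 change of 7.16 ± 0.15 (limma adjusted p = 5.24e-21). The 41 vehicle reads alone place the vehicle mean between 6.22 and 11.8 normalized counts (exact Poisson 95% interval, counting error only). Nr4a2 had 1017, 929, 1065 and 1020.4 normalized counts in isoproterenol libraries, against 45.7, 41.6, 36.3 and 43.9 in vehicle libraries. These groups did not overlap either, and the log2 change was 4.56 ± 0.13 (means 1008 ± 57.2 and 41.9 ± 4.08, ratio 24.1, limma adjusted p = 1.42e-18).

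A gene counted as changed at a limma adjusted p under 0.05. The comparison called 82.7% of the 14005 genes tested, 39.4% higher and 43.3% lower, so the call itself says little about the NR4A genes, and groups did not overlap in 77.8% of genes, 37.5% with isoproterenol higher. With the values scaled to the same total per library, 3865 were higher and 7835 lower, where the deposited scaling gave 5517 and 6064. By size of change, Nr4a3 was number 18 from the top of the 14005 genes, Nr4a1 number 21 and Nr4a2 number 96. Genes were tested when at least 4 libraries had a normalized count of at least 10. Nr4a3 passed only through its isoproterenol libraries and so had to differ, whereas Nr4a1 and Nr4a2 had over 30 in every library.

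**Figure D2:**
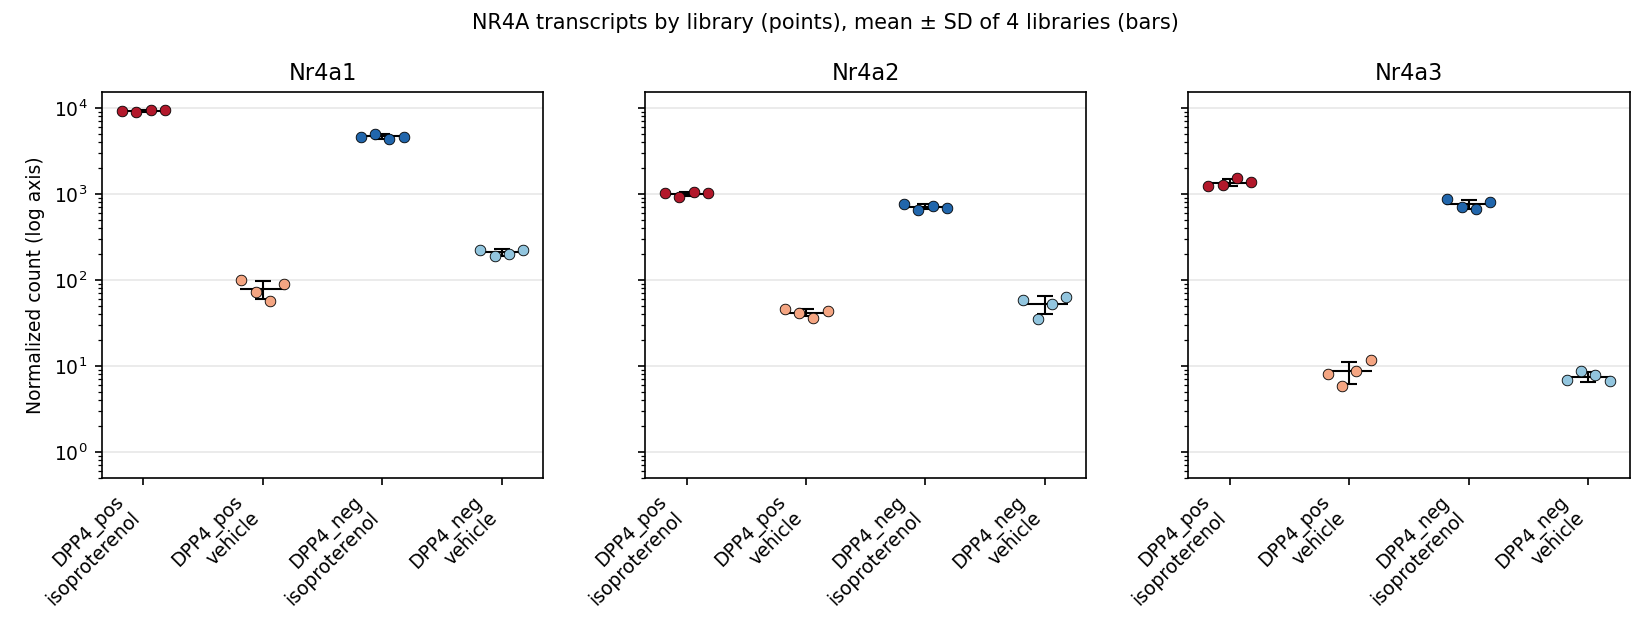
Normalized counts (log axis) of Nr4a1, Nr4a2 and Nr4a3 in each of the 16 libraries (points) with the mean ± SD of the 4 libraries of a group (bars). Isoproterenol libraries of both populations lie above all vehicle libraries for each gene, and Nr4a1 under vehicle is lower in DPP4_pos (56.7 to 99.5) than in DPP4_neg APCs (189.9 to 227).

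In DPP4_neg APCs the 3 transcripts rose as well, and the order of the changes was again Nr4a3, Nr4a1, Nr4a2. Nr4a1 had 4666, 5049, 4409 and 4585 normalized counts in isoproterenol libraries, against 226, 189.9, 202 and 227 in vehicle libraries. The groups lay apart, with means of 4677 ± 270.1 and 211 ± 18.4 (SD, n = 4 each), a ratio of 22.2 and a log2 change of 4.47 ± 0.11 (limma adjusted p = 3.02e-19). Nr4a3 had 873, 714, 664 and 799 normalized counts in isoproterenol libraries, against 6.86, 8.76, 7.84 and 6.77 in vehicle libraries. As in DPP4_pos APCs it came from a few reads, 42 over the vehicle group, to over 600 normalized counts in every isoproterenol library. Its log2 change was 6.48 ± 0.15 (means 763 ± 92.3 and 7.56 ± 0.938, ratio 101, limma adjusted p = 6.86e-20). Nr4a2 had 776, 654, 729 and 697 normalized counts in isoproterenol libraries, against 59.5, 35.1, 53.2 and 64.3 in vehicle libraries. It rose by 3.76 ± 0.13 on the log2 scale (means 714 ± 51.3 and 53.0 ± 12.8, ratio 13.5, limma adjusted p = 1.06e-16), with no overlap of the groups. Here 65.7% of the genes tested were called, 32.1% as higher and 33.6% as lower, and groups did not overlap in 58.9%, 28.2% with isoproterenol higher. By size of change Nr4a1 was number 53 of the 14005 genes from the top and Nr4a2 number 93. Nr4a3 stood at number 12, which is a description only, since the filter kept it through its isoproterenol libraries.

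The response of Nr4a1 was larger in DPP4_pos than in DPP4_neg APCs, by 2.42 ± 0.15 on the log2 scale (limma adjusted p = 1.55e-11 for the difference of responses). It came from both ends, since Nr4a1 was higher in DPP4_pos APCs under isoproterenol and lower in them under vehicle. Under isoproterenol the lowest DPP4_pos library (9028 normalized counts) was above the highest DPP4_neg library (5049), a log2 difference of 0.9995 ± 0.11 (limma adjusted p = 3.84e-08). Over the 10 settings other than leaving out a library, that difference ranged from 0.70 to 0.9996 and stayed past the threshold. Under vehicle the highest DPP4_pos library (99.5) was below the lowest DPP4_neg library (189.9), with a log2 difference of −1.42 ± 0.11 (limma adjusted p = 1.61e-10), or 2.65-fold lower in DPP4_pos APCs. The difference of responses ranked number 114 of 14005 genes, in a comparison that called 62.6% of genes, 31.6% as higher and 31.0% as lower. It ranged from 2.16 to 2.43 over the 9 settings other than leaving out a library. With values scaled to the same total per library 2557 genes were called higher and 6828 lower in this comparison, against 4423 and 4342 with the deposited scaling.

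Nr4a2 and Nr4a3 had smaller differences of responses. That of Nr4a2 was 0.80 ± 0.18 (limma adjusted p = 0.00065). Under isoproterenol Nr4a2 was 1.41-fold higher in DPP4_pos APCs, from 929 to 1065 against 654 to 776 normalized counts, and Nr4a3 1.78-fold higher, from 1248 to 1526 against 664 to 873. Neither pair of groups overlapped, and the log2 differences were 0.50 ± 0.13 for Nr4a2 (limma adjusted p = 0.00151) and 0.83 ± 0.15 for Nr4a3 (limma adjusted p = 2.73e-05). Scaling to the same total per library gave 0.30 for Nr4a2, still past the threshold. That comparison called 74.4% of genes, 37.4% as higher and 37.0% as lower, with groups that did not overlap in 63.9%, 32.9% with DPP4_pos higher. It split into 5237 higher and 5181 lower genes, and into 3665 and 7004 after scaling to the same total.

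The difference of responses of Nr4a3, 0.68 ± 0.21 (limma adjusted p = 0.00677, 95% interval 0.25 to 1.11), has only 8 to 14 reads per vehicle library behind it. It did not pass in edgeR on recovered reads (0.58, adjusted p = 0.182), in DESeq2 on the same reads (0.63, adjusted p = 0.0975) or after scaling to the same total (0.43, limma adjusted p = 0.07). The adjusted p over its alternatives ranged from 0.000543 to 0.182. Under vehicle Nr4a3 had 5.95 to 11.8 normalized counts in DPP4_pos and 6.77 to 8.76 in DPP4_neg libraries, which overlapped, and the log2 difference of 0.15 ± 0.15 did not pass (limma adjusted p = 0.381, 95% interval −0.16 to 0.45) and was −0.12 under quantile normalization.

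Nr4a2 under vehicle had 36.3 to 45.7 normalized counts in DPP4_pos and 35.1 to 64.3 in DPP4_neg libraries, which overlapped. Its log2 difference of −0.30 ± 0.13 passed narrowly (limma adjusted p = 0.0435). The call ended, with adjusted p over all its alternatives from 8.66e-05 to 0.183, when DPP4_pos vehicle replicate 2 (−0.30) or 3 (−0.24) or DPP4_neg vehicle replicate 1 (−0.24), 3 (−0.29) or 4 (−0.20) was left out. It also ended, at −0.30, without DPP4_pos isoproterenol replicate 1 or DPP4_neg isoproterenol replicate 3 or 4, which enter only through the shared estimate of the spread. Without DPP4_neg vehicle replicate 2, the lowest of its group, the difference was −0.48 and passed. Between the vehicle groups 66.6% of genes were called, 31.6% as higher and 35.0% as lower, and groups did not overlap in 67.3%, 32.1% with DPP4_pos higher. That comparison split into 4428 higher and 4898 lower genes, and into 5151 and 4241 after scaling to the same total. These comparisons share groups of libraries with each other and with the responses.

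**Figure D3:**
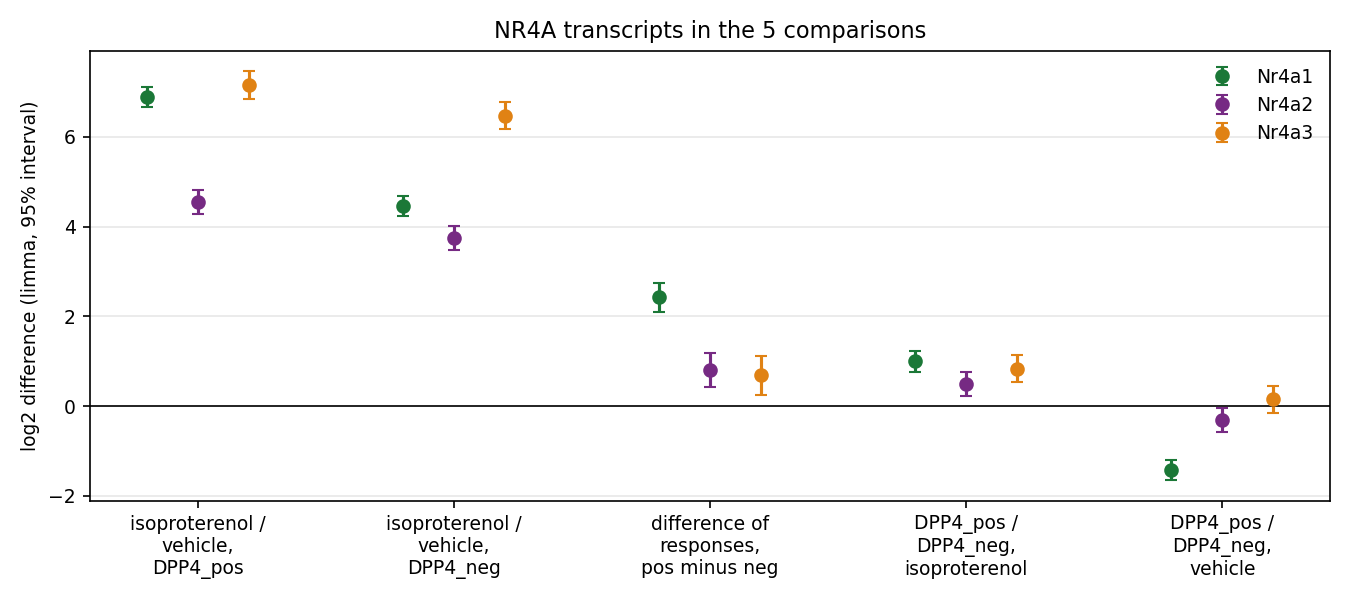
log2 differences of the 3 NR4A transcripts (limma estimate with its 95% interval) in the 5 comparisons, in the direction written under each column. The response of Nr4a1 differs most between the populations (2.42), and under vehicle its DPP4_pos to DPP4_neg difference is −1.42.

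Set against each other within a library, the members did not respond alike. The log2 ratio of Nr4a3 to Nr4a2 was higher under isoproterenol than under vehicle by 2.60 in DPP4_pos and by 2.72 in DPP4_neg APCs. That of Nr4a3 to Nr4a1 was higher by 2.01 in DPP4_neg APCs, whereas in DPP4_pos APCs it differed by 0.27 and did not pass (exact permutation p = 0.343). The log2 ratio of Nr4a1 to Nr4a2 was higher under isoproterenol by 2.33 in DPP4_pos and by 0.71 in DPP4_neg APCs, and under vehicle it was lower in DPP4_pos than in DPP4_neg APCs, with a difference of −1.12. Each difference given here without its own p had exact two-sided permutation p = 0.0286, the smallest that 4 against 4 libraries allow, and adjusted p = 0.0381 over the 12 ratios compared. For the ratios with Nr4a3 between treatments these values are a description only, since the filter kept Nr4a3 through its isoproterenol libraries. Its vehicle libraries had 8 to 14 reads each.

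Per kilobase of exon (2679 bases for Nr4a1, 3743 for Nr4a2 and 5720 for Nr4a3, the union of GENCODE M21 basic exons), Nr4a1 was the most abundant member in all 4 groups. It had 3488 ± 98.5 normalized counts per kilobase in DPP4_pos isoproterenol and 29.7 ± 7.13 in DPP4_pos vehicle libraries, and 1746 ± 101 in DPP4_neg isoproterenol and 78.8 ± 6.88 in DPP4_neg vehicle libraries. Nr4a2 and Nr4a3 followed in that order. In DPP4_pos isoproterenol libraries their ranges overlapped, 248 to 285 per kilobase for Nr4a2 and 218 to 267 for Nr4a3, while in DPP4_neg isoproterenol libraries Nr4a2 (175 to 207) lay above Nr4a3 (116 to 153).

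As a share of the sum of the 3 levels per kilobase, Nr4a1 held 87.3 ± 0.466% in DPP4_pos isoproterenol and 69.6 ± 3.35% in DPP4_pos vehicle libraries, and 84.3 ± 1.42% in DPP4_neg isoproterenol and 83.7 ± 2.01% in DPP4_neg vehicle libraries. The share of Nr4a2 was 6.74 ± 0.201% and 26.8 ± 2.86% in DPP4_pos and 9.24 ± 0.902% and 14.9 ± 2.32% in DPP4_neg APCs, isoproterenol before vehicle. DPP4_pos vehicle libraries thus had the most even mixture, with Nr4a2 at 24.1% to 29.9%. The sum itself was 3994 ± 133 per kilobase in DPP4_pos isoproterenol and 42.4 ± 8.31 in DPP4_pos vehicle libraries, against 2069.9 ± 96.6 in DPP4_neg isoproterenol and 94.3 ± 9.96 in DPP4_neg vehicle libraries.

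**Figure D4:**
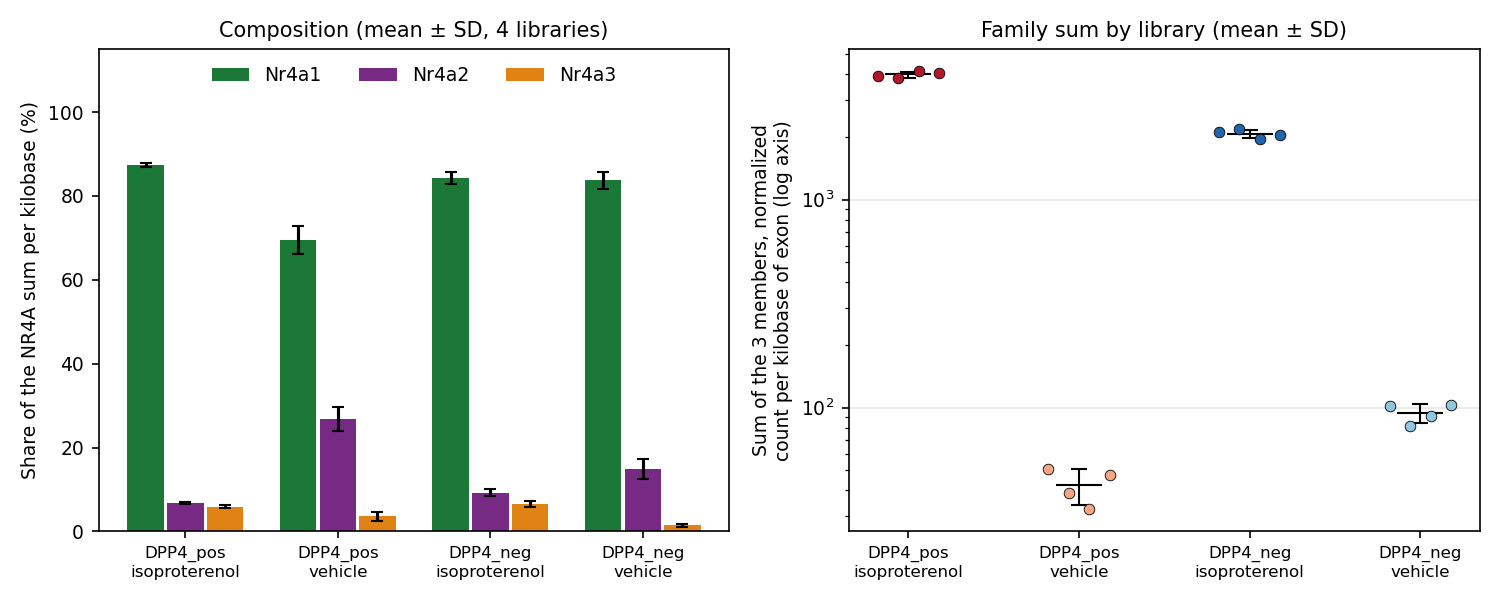
Left, share of each member in the NR4A sum of normalized counts per kilobase of exon (bars, mean ± SD of 4 libraries); right, that sum in each library (points, log axis) with mean ± SD. Nr4a1 holds most of the sum in every group and least in DPP4_pos vehicle libraries (69.6%), where the sum is also lowest.

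Among the nuclear receptors the NR4A genes stood near the top of the response. Of the other 46 nuclear receptor genes, all were in the table and 31 were tested. In DPP4_pos APCs 9 of these rose and 19 fell, and in DPP4_neg APCs 10 rose and 15 fell, with median log2 changes of −0.31 and −0.17 where the medians of all genes were −0.05 and −0.02. Over all genes tested 39.4% rose and 43.3% fell in DPP4_pos APCs, and 32.1% and 33.6% in DPP4_neg APCs. Nr4a3, Nr4a1 and Nr4a2 took places 1, 2 and 4 of the 34 tested in DPP4_pos APCs, and places 1, 3 and 4 in DPP4_neg APCs, where for Nr4a3 the place is again only a description. The place between them was taken by Vdr, the vitamin D receptor, which rose by 5.55 ± 0.06 in DPP4_pos and 4.59 ± 0.06 in DPP4_neg APCs, and Rorb, another orphan receptor, came next after the NR4A genes with 2.59 ± 0.10 and 2.67 ± 0.10. Among those that fell, Nr3c2, the mineralocorticoid receptor, had log2 changes of −2.85 ± 0.35 and −1.94 ± 0.35 in DPP4_pos and DPP4_neg APCs. Nr3c2 was scarce, with 6.83 ± 4.56 and 9.68 ± 3.76 normalized counts in DPP4_pos and DPP4_neg isoproterenol libraries. In vehicle libraries it had 47.7 ± 5.32 and 38.5 ± 7.23, so the filter kept it mainly through these. Thrb, a thyroid hormone receptor, fell as well, with −2.33 and −2.21. The lowest changes were those of Nr1h4 in DPP4_pos (−3.11) and Rxrg in DPP4_neg APCs (−2.23), both scarce. The filter kept Nr1h4 through its DPP4_pos vehicle libraries (19.6 ± 6.34 normalized counts) and Rxrg mainly through vehicle libraries. Both falls are thus a description only. Nr1h4 was not called in DPP4_neg APCs. In levels per kilobase Nr4a1 was number 24 of 49 nuclear receptors in DPP4_pos vehicle and number 20 in DPP4_neg vehicle libraries. Under isoproterenol it was the highest of all in DPP4_pos APCs, ahead of Vdr with 1954 ± 109.7 per kilobase, and in DPP4_neg APCs it came next after Vdr, which had 2057 ± 59.1.

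**Figure D5:**
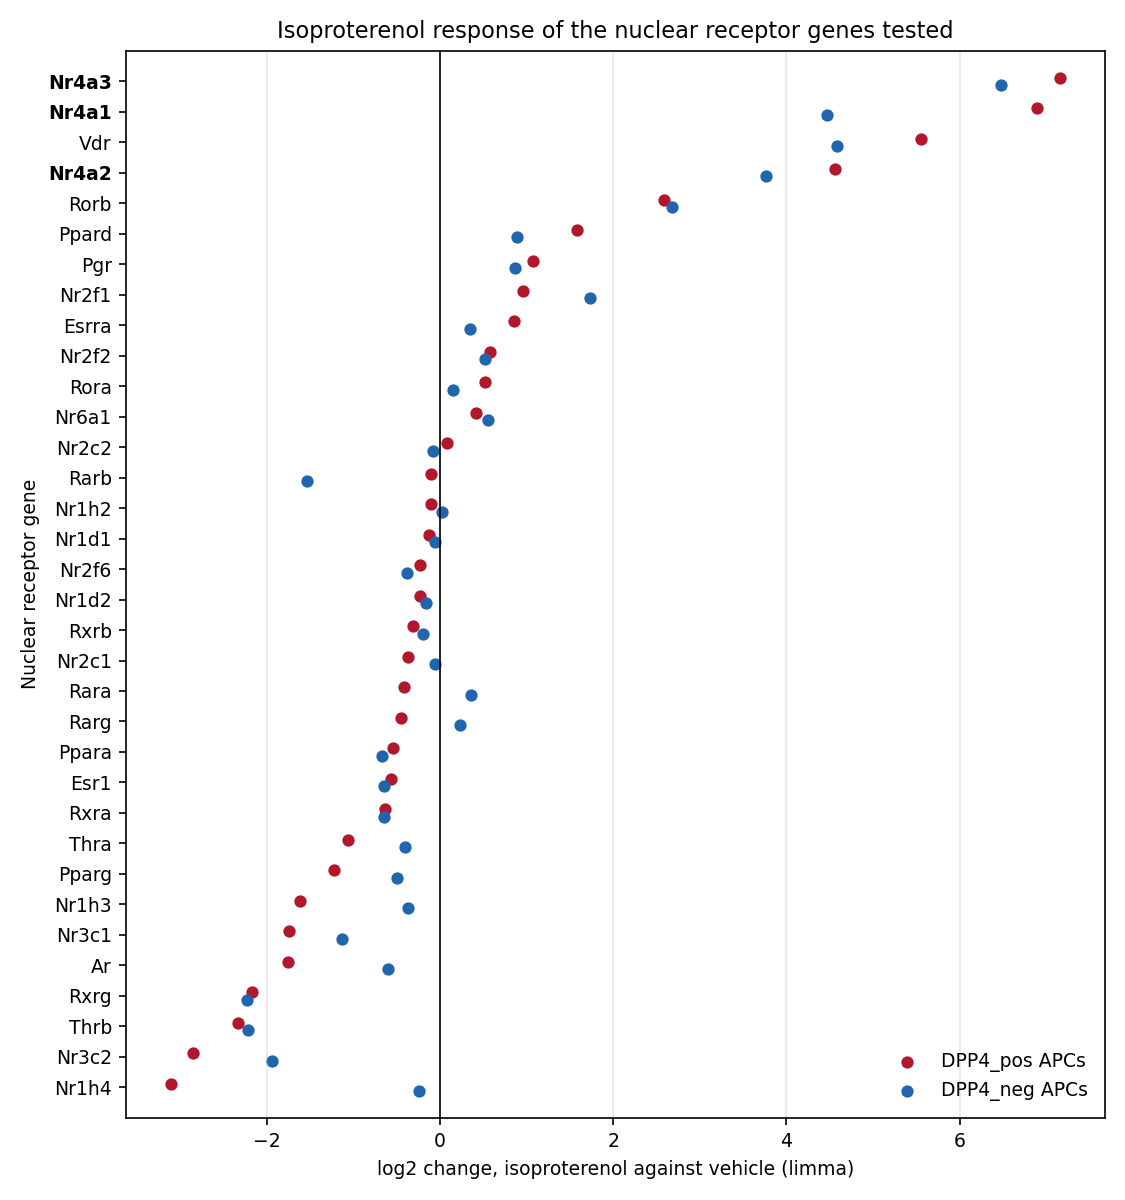
log2 change under isoproterenol against vehicle of the 34 nuclear receptor genes tested, in DPP4_pos (red) and DPP4_neg APCs (blue), ordered by the change in DPP4_pos APCs. The NR4A genes (bold) and Vdr lie above 3.7 in both populations, and the next, Rorb, is at 2.59 and 2.67.

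Among factors known to switch NR4A genes on or off, the inducible feedback genes Crem and Sik1 had the largest rises in DPP4_pos APCs. Of 20 such genes 12 rose and 5 fell in DPP4_pos APCs, where 39.4% and 43.3% of all genes tested did. In DPP4_neg APCs 8 rose and 8 fell, where 32.1% and 33.6% of all genes tested did. The medians of the 20 were 0.17 and −0.01 in DPP4_pos and DPP4_neg APCs. In DPP4_pos APCs scaling to the same total gave 7 risen and 10 fallen of the 20, and quantile normalization left 6 risen. Crem, whose inducible form is a repressor at CREs, rose by 5.42 ± 0.06 in DPP4_pos and 4.62 ± 0.06 in DPP4_neg APCs, and the kinase gene Sik1, which holds back CREB coactivators, by 3.97 ± 0.05 and 2.12 ± 0.05. Counts per gene do not tell which form of Crem rose. Creb1 itself rose by 0.29 ± 0.05 in DPP4_pos APCs, a call lost under quantile normalization (0.07) and after scaling to the same total (0.02), and its change of −0.06 ± 0.05 in DPP4_neg APCs did not pass. The class IIa histone deacetylase gene Hdac4, a repressor of MEF2 factors, rose by 2.48 ± 0.08 and 1.34 ± 0.08, and Hdac9 of the same class fell by 2.57 ± 0.47 and 3.63 ± 0.47. Hdac9 was scarce, with 7.29 ± 3.28 and 45.7 ± 6.00 normalized counts in DPP4_pos isoproterenol and vehicle libraries. In DPP4_neg isoproterenol and vehicle libraries it had 3.63 ± 4.56 and 39.2 ± 6.06, so the filter kept it mainly through vehicle libraries. Mef2d and Mef2c, activators of Nr4a1 in lymphocytes, went opposite ways, with Mef2d at 1.15 ± 0.04 and 0.76 ± 0.04 and Mef2c at −1.68 ± 0.08 and −1.34 ± 0.08. The serum response factor gene Srf differed in its response, with 0.14 ± 0.05 in DPP4_pos and −1.60 ± 0.05 in DPP4_neg APCs, and a difference of responses of 1.75 ± 0.07. The small DPP4_pos value of Srf was −0.13 after scaling to the same total and did not pass in edgeR (0.10) or without DPP4_pos isoproterenol replicate 3 (0.10), so its direction there depends on the scaling.

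Of 18 genes of proteins that pair with or modify NR4A proteins, 9 rose and 7 fell in DPP4_pos APCs and 9 rose and 8 fell in DPP4_neg APCs, with medians of 0.11 and 0.05. The shares over all genes tested were 39.4% higher and 43.3% lower in DPP4_pos, and 32.1% and 33.6% in DPP4_neg APCs. All 3 retinoid X receptor genes fell in both populations, Rxra by 0.64 and 0.65 on the log2 scale and Rxrb by 0.31 and 0.20 in DPP4_pos and DPP4_neg APCs. Without DPP4_neg isoproterenol replicate 3 the Rxrb change in DPP4_neg APCs was −0.14 and did not pass. Rxrg, the third, was scarce, with 2.34 ± 2.16 and 11.9 ± 3.82 normalized counts in DPP4_pos isoproterenol and vehicle libraries. In DPP4_neg isoproterenol and vehicle libraries it had 5.23 ± 3.50 and 25.4 ± 2.63. The filter thus kept Rxrg mainly through vehicle libraries, and its fall is a description only. Fhl2, a LIM-domain protein reported to repress Nr4a1 activity, fell to 34.5 ± 2.71 in DPP4_pos isoproterenol libraries, against 283 ± 20.1 in vehicle, and to 133 ± 10.2 in DPP4_neg isoproterenol libraries, against 2865 ± 74.2 in vehicle. The coactivator gene Ncoa2 fell by 0.84 in DPP4_pos and 0.57 in DPP4_neg APCs on the log2 scale.

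The NR4A genes rose with most of the other early response genes. Of 31 such genes 26 rose and 3 fell in DPP4_pos APCs, and 26 rose and 4 fell in DPP4_neg APCs, with median log2 changes of 1.51 and 0.94. Among all genes tested 39.4% rose and 43.3% fell in DPP4_pos APCs, and 32.1% and 33.6% in DPP4_neg APCs. Nr4a3 and, in DPP4_pos APCs, Nr4a1 changed more than any of the 31, which for Nr4a3 is a description only. In DPP4_pos APCs the largest changes of that list were those of Ptgs2 (cyclooxygenase-2, 5.82 ± 0.13), Crem, the GTPase gene Gem (4.85 ± 0.08) and Ier3 (4.78 ± 0.06), and in DPP4_neg APCs those of Gem (5.59 ± 0.08), Crem, Egr3 (3.33 ± 0.17) and Egr2 (3.22 ± 0.11). The difference of responses, DPP4_pos minus DPP4_neg, was called higher for 21 of the 31, as for Nr4a1, and lower for 8. In that comparison 31.6% of all genes tested were called higher and 31.0% lower. The zinc-finger factor genes Egr2 and Egr3 rose less in DPP4_pos than in DPP4_neg APCs, with differences of −2.12 ± 0.16 and −2.11 ± 0.24.

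Likeness of pattern was measured by Pearson's r over the 16 libraries on the log2 scale, among the 11397 tested genes averaging 50 normalized counts or more. As the libraries fall into 4 groups, r mostly describes the group means. Nr4a3 was most like Crem (r = 0.998), Adamts4, an aggrecan-cleaving protease gene (0.998), and Slc16a6, a monocarboxylate transporter gene (0.997), whose DPP4_pos to DPP4_neg log2 differences under vehicle were 0.01 ± 0.06, 0.21 ± 0.05 and 0.10 ± 0.09. Crem had 128 ± 4.82 normalized counts in DPP4_pos vehicle and 128 ± 12.5 in DPP4_neg vehicle libraries. Nr4a1 was most like Gsto1, a glutathione transferase gene (r = 0.998), the AP-1 factor gene Fosl1 (0.997) and Cbarp, a calcium channel regulator gene (0.997). Each of these shared the crossing of Nr4a1, which is a description only, since they were picked for likeness to it. Fosl1 had 828 ± 44.7 and 591 ± 58.7 normalized counts in DPP4_pos and DPP4_neg isoproterenol libraries but 43.9 ± 6.12 and 83.9 ± 3.01 in DPP4_pos and DPP4_neg vehicle libraries. Nr4a2 was most like Cmip (r = 0.997), the keratin gene Krt20 (0.996) and Thbd, which encodes the anticoagulant receptor thrombomodulin (0.996). Their DPP4_pos to DPP4_neg log2 differences also changed sign. They were 0.24, 1.44 and 0.77 under isoproterenol and −0.09, −0.48 and −0.39 under vehicle. Among themselves the members had r = 0.989 (Nr4a1 and Nr4a2), 0.978 (Nr4a1 and Nr4a3) and 0.991 (Nr4a2 and Nr4a3).

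Genes reported as NR4A targets in other tissues did not move as a body. Of 28, all in the table, 17 were tested, and 4 rose and 9 fell in DPP4_pos APCs while 6 rose and 6 fell in DPP4_neg APCs, with medians of −0.32 and −0.11. The shares of all genes tested were 39.4% risen and 43.3% fallen in DPP4_pos, and 32.1% and 33.6% in DPP4_neg APCs. Star, which brings cholesterol into mitochondria for steroid synthesis and is a target in steroid-making cells, rose by 5.77 ± 0.10 and 5.56 ± 0.10, to 3759.8 ± 181 normalized counts in DPP4_pos isoproterenol libraries, against 68.3 ± 7.30 in vehicle. Ucp2, a mitochondrial carrier gene, rose by 2.10 ± 0.09 and 3.08 ± 0.09. Slc2a4, the insulin-responsive glucose transporter and a target in muscle, fell by 2.13 and 2.66. The receptor tyrosine kinase gene Ret, a target in dopamine neurons, changed in opposite directions, with 3.02 ± 0.08 in DPP4_pos and −1.18 ± 0.08 in DPP4_neg APCs (difference of responses 4.201 ± 0.11). Th, the tyrosine hydroxylase gene of those neurons, had 0 reads in every library.

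Some other gene groups moved with the treatment. Heat shock and chaperone genes, which like NR4A genes respond to the handling of cells, summed to 67470 to 69820 normalized counts in DPP4_pos isoproterenol and 20743 to 22146 in DPP4_pos vehicle libraries, and to 37621 to 39008 in DPP4_neg isoproterenol and 25265 to 26862 in DPP4_neg vehicle libraries. Hsph1 alone had 24084 ± 669 and 1730 ± 76.3 in DPP4_pos and 11438 ± 191 and 1667 ± 62.7 in DPP4_neg isoproterenol and vehicle libraries. The next largest log2 rises were 1.58 (Hspd1) in DPP4_pos and 0.53 (Dnajb1) in DPP4_neg APCs. Of the 10 genes, 8 rose and 1 fell in DPP4_pos APCs and 6 rose and 3 fell in DPP4_neg APCs, where the fallen included Hspa1a and Hspa1b, near-identical copies whose reads may be split. Their part in the NR4A values was not tested. Macrophage and leukocyte markers summed to 628 to 1334 and 541 to 974 in DPP4_pos, and to 738 to 1710 and 430.1 to 919 in DPP4_neg isoproterenol and vehicle libraries, with 2 of 8 tested risen and none fallen in each population. Endothelial markers, of which 2 rose and 2 fell among 6 tested in DPP4_pos APCs and 3 rose and 2 fell in DPP4_neg APCs, summed to 1174 to 1315 and 1112 to 1175 in DPP4_pos and to 172 to 219.5 and 165 to 202 in DPP4_neg isoproterenol and vehicle libraries. That sum joins opposite changes. In DPP4_pos isoproterenol and vehicle libraries Kdr had 684 ± 25.8 and 39.9 ± 6.81 normalized counts, and Tek 410 ± 32.2 and 1013 ± 19.3. Markers of mural cells summed to 1230.0 to 1373 and 1814 to 1926 in DPP4_pos and to 5269.9 to 5628 and 7888 to 8064 in DPP4_neg isoproterenol and vehicle libraries, and 4 of 7 fell in each population while 3 rose in DPP4_pos and 1 in DPP4_neg APCs. No marker of these lists was at 0 in all libraries of a group. Of 10 PDGFRb stromal markers 8 fell and none rose in DPP4_pos APCs, and 2 fell and 3 rose in DPP4_neg APCs, and of 9 DPP4 progenitor markers 5 rose and 3 fell in DPP4_pos and 6 rose and 2 fell in DPP4_neg APCs. Beside all these lists, 39.4% of all genes tested rose and 43.3% fell in DPP4_pos, and 32.1% and 33.6% in DPP4_neg APCs.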

How the data were processed

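The authors deposited 1 table of normalized signal per gene for the 16 libraries, read counts divided by a size factor per library, as its values show: 100.0% of 280334 values above 0 were whole multiples of a fixed step per library within 0.001, which gave back whole reads. Per the submitters' processing notes, the tools were featureCounts 1.4.6, HISAT2 2.0.1, DESeq2 1.6.3 and Trim Galore 0.4.1, and the builds mm10 and GRCm38; how each was run, the annotation and any use of strand were not given in the sources used here. No other GENCODE M21 gene overlapped an NR4A gene.

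Of 27179 entries, 14005 had a normalized count of at least 10 in at least 4 libraries. They were tested with limma 3.58.1 (R 4.3.3) with a mean-variance trend on log2(normalized count + 1), all 16 libraries in 4 group means, with Benjamini-Hochberg adjustment and a threshold of 0.05. Fold changes on this scale understate the change of low genes. Errors of log2 differences are standard errors, those of levels SDs. Ratios between members were compared by exact permutation over libraries. Alternatives were edgeR 4.0.16 and DESeq2 1.42.0 on the recovered reads (edgeR called 11581 genes in the DPP4_pos response and 9543 in the DPP4_neg response), other pseudocounts, scalings and filters, fewer groups, a replicate block and leaving out each library. Scripts were tested on simulated data. Library pairs within a group differed by more than counting noise (chi-square over its degrees of freedom, 1.58 to 8.81), so none was treated as a repeat deposit of another; this does not show that they are independent cultures.

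The members and the gene lists, compiled from textbook knowledge, were chosen with earlier results of these data known. Named beside the members were the 3 most alike genes of each, up to 4 called genes of a list with the largest change in each population, and Dpp4 and Pdgfrb. Creb1, Mef2c, Mef2d, Rxrb, and Th were added after their values were seen. Some genes that this rule picks are not reported here. Gene positions and promoter windows are RefSeq's for GRCm38.p6.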

Additional observations from a re-analysis of the deposited data

Results flagged for a closer look

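The isoproterenol response differed between DPP4_pos and DPP4_neg APCs in all 3 NR4A transcripts by the test of the difference itself. The log2 difference of responses, DPP4_pos minus DPP4_neg, was 2.42 for Nr4a1, 0.80 for Nr4a2 and 0.68 for Nr4a3, and that of Nr4a3 did not pass in 3 of its alternatives. In the 12 sets of 4 libraries, 1 for each member and group, no library stood apart from the other 3 by Dixon's criterion at the 95% level.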

How the results depend on the processing

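The 3 responses in each population, the difference of responses of Nr4a1 and Nr4a2, the differences under isoproterenol and the lower Nr4a1 in DPP4_pos vehicle libraries kept their direction and stayed past the threshold in every alternative run. For the responses of Nr4a3 this is a description only, since the filter kept it through its isoproterenol libraries. The difference of responses of Nr4a3 was 0.43 after scaling to the same total, 0.58 in edgeR and 0.63 in DESeq2, and did not pass there; the cause was not tested. The vehicle difference of Nr4a2 did not pass without a filter (−0.30), after upper-quartile rescaling (−0.27), after scaling to the same total (−0.24), with only the vehicle groups (−0.30) or in 8 of the 16 runs that left out a library; all 16 ranged from −0.48 to −0.20, and the 8 from −0.30 to −0.20. That of Nr4a3, not called, was −0.12 under quantile normalization, and the cause was not tested. Among the other genes named, the DPP4_pos change of Srf was −0.13 after scaling to the same total, and that of Creb1 was lost there (0.02). The vehicle differences of Crem and Slc16a6, not called, were −0.0748 and −0.0754 under quantile normalization, and that of Crem ranged from −0.0489 to 0.0645 when a library was left out. Leaving out a library gave 0.54 to 0.83 for the difference of responses of Nr4a3. Scaling to the same total, chosen after seeing the data, moved the median log2 change of all genes in DPP4_pos APCs to −0.32 from −0.05, so changes there are relative to it. Total counts of genes called stayed within 1.5 times of the main ones in every alternative; by direction, the difference of responses after scaling to the same total had 2557 higher and 6828 lower genes, against 4423 and 4342.

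Replicate numbers showed little sign of pairing: deviations of same-numbered libraries correlated at −0.231 to 0.131, over 0.1 in 1 of 24 pairs, and in 8 of the 24 pairs the library correlated best with its own number. Such weak correlations cannot tell if same-numbered libraries share an animal or culture, which the labels do not say. With the replicate block the comparisons called 11612, 9295, 8854, 10451 and 9393 genes, against 11581, 9199, 8765, 10418 and 9326 without it, and every NR4A call held. The difference of responses could not be fitted with only the groups compared, since it needs all 4.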
